A study of Rattus norvegicus with 18 samples.

Results

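The resting H3K4me3 landscape of untreated primary rat Schwann cells was examined by setting 3 control H3K4me3 ChIP libraries against 3 control genomic input libraries. These 6 libraries belong to a series of 18 on the response of H3K4me3 to cAMP, and the libraries from treated cells were not used. All 16364 peaks of the deposited count table entered the description. The control cells received no cAMP analogue. Per the study's methods, the cells of every group were isolated from sciatic nerves of 3-month-old Fisher rats, expanded with neuregulin and forskolin, and then grown in serum-containing medium without either agent. An earlier exposure to forskolin, which raises cAMP, is therefore shared by the control cells and limits them as a model of a resting Schwann cell. The labels do not say whether the libraries of a group came from separate cultures, so that any spread given here is a spread between libraries and may be technical.

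Schwann cells are the glia that ensheathe and myelinate the axons of peripheral nerves. Trimethylation of lysine 4 of histone H3 is deposited by the SET1 and MLL methyltransferase complexes, removed by the KDM5 demethylases, and sits mainly on the nucleosomes around transcription start sites of active or poised genes, often within CpG islands. In ChIP, fragments carrying the mark are pulled down with an antibody, whereas genomic input is the same kind of sheared chromatin without the pulldown and measures how often a region is sequenced without selection. Broad H3K4me3 domains are known from genes that define a cell's identity, and narrow or weak peaks from distal elements. The table gives positions in the rat build Rnor_6.0 without gene names, and no annotation of that build was used here. The label of the cells was therefore not checked against Schwann cell markers, and peaks are named by their number and position. Some scaffold peaks start at position 0, so that starts may count from 0 rather than from 1.

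Most H3K4me3 reads of the control cells lay in peaks, whereas nearly all input reads lay outside them. In ChIP libraries 1, 2 and 3, 83.0%, 79.7% and 82.3% of 16580533, 18123026 and 17598707 aligned reads fell in peaks. In inputs 1, 2 and 3, the share was 1.05%, 1.07% and 2.95% of 5351052, 2559134 and 22886524 aligned reads. The groups did not overlap, with means of 81.7% ± 1.76 (SD, n = 3) for ChIP and 1.69% ± 1.09 (SD, n = 3) for input. The two-sided exact permutation test gave p = 0.1, the smallest value that 3 against 3 libraries allow. The peaks were called on these same ChIP reads, which set a higher share in ChIP in advance. Neither the separation nor the test is therefore independent support. The Wilson 95% interval was widest for ChIP 2 among the ChIP libraries (79.66% to 79.69%) and for input 2 among the inputs (1.06% to 1.08%), and such intervals cover counting error only.

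The peaks together covered 28.4 Mb, or 1.03% of the 2766 Mb between the first and the last peak of each chromosome. Read density was expressed as reads per kb of peak and 1000000 aligned reads (RPKM), where aligned reads are reads in peaks plus reads outside every peak. ChIP density inside peaks was 29.3, 28.1 and 29.0 RPKM in libraries 1, 2 and 3, against 0.0621, 0.0742 and 0.0646 RPKM over the rest of that span. The ratio of inside to outside was thus 471, 378 and 449. The same ratio was 1.03 in input 1 and 1.04 in input 2, so that peak regions were sequenced there about as often as the rest of the genome.

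Input 3 stood apart from the other inputs. Its density was 1.04 RPKM inside peaks and 0.354 RPKM outside, a ratio of 2.93. This library was also the deepest input, with a median of 36 reads per peak against 3 in input 1 and 1 in input 2, and it had no read in 18 peaks against 2070 and 4857. It therefore carried most of any pooled background, and results that rest on it are given with and without it. Across the 16364 peaks, which share libraries, input density and ChIP density had a Spearman correlation of 0.05 for input 3. It was 0.05 for input 2 and 0.03 for input 1. The cause of the higher level in input 3 was not tested.

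Every tested peak was higher in ChIP than in input. The 3 ChIP libraries held a median of 701.5, 737 and 741 reads per peak. With edgeR's quasi-likelihood test and a Benjamini-Hochberg adjusted p under 0.05, 16361 of 16361 peaks tested were higher in ChIP, which is 100% of them, and the other 3 peaks did not pass the filter on low counts. Against a null level of 4-fold in place of no enrichment, 15512 peaks were called, or 94.8%, and 849 were not. The peaks were called on these same ChIP reads and merged with those of treated cells, so that these counts describe the peak set and do not support it independently. The inputs differed far more from each other than the ChIP libraries did, with a biological coefficient of variation of 77.1% against 1.48% (7.97% for inputs 1 and 2 alone), and the fit shares a single spread between them. P-values of single peaks are therefore not given.

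The median peak had a log2 enrichment of 4.94 ± 0.03 (SD over 3 ChIP libraries) over the 3 inputs pooled, or 30.6-fold. Enrichment here is the ratio of reads per aligned read, with 0.5 reads added to each count. The central 90% of peaks ranged from 2.39 to 5.95 on the log2 scale. Against inputs 1 and 2 alone the median was 6.08 ± 0.03, or 67.6-fold, and against input 3 alone it was 4.68 ± 0.03, or 25.7-fold. The size of the fold thus depended on a single input library, whereas the 3 ChIP libraries gave nearly the same value. Against the pooled inputs 0 peaks were below the input level and 1 was under 2-fold. With input 2 alone, 1 peak was below it and 23 were under 2-fold, and 17 were under 2-fold with input 3 alone and 4 with inputs 1 and 2. A typical peak is Peak_6286 (chr5:158089436-158090978, 1543 bp), the nearest to the median of both width and enrichment, with 691, 687 and 733 ChIP reads and 2, 1 and 37 input reads.

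Of the peaks, 9 had no read in any input. A count of 0 in 30796710 pooled input reads allows up to 3 reads, or 0.0974 reads per 1000000. Set against that floor, the mean of the 3 ChIP libraries was at least 19.98-fold to 138-fold higher in these 9 peaks. They were narrow, at 275 to 443 bp, and 8 of them lay on chromosomes and 1 on an unplaced scaffold. That scaffold peak, Peak_2701, was uneven, with 1.57, 10.5 and 0.227 reads per 1000000 in ChIP libraries 1, 2 and 3. The bound on the mean thus does not hold in each library.

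H3K4me3 density was not spread evenly around its median but had a low and a high maximum. The median over peaks was 25.8 RPKM and the range 1.89 to 77.0 RPKM. In bins of 2.5 RPKM, peaks were most numerous between 5 and 7.5 RPKM, with 1512, 1554 and 1495 peaks in ChIP libraries 1, 2 and 3. The number was lowest between the maxima at 15 to 20 RPKM, with 634, 650 and 624 peaks in the emptiest bin of libraries 1, 2 and 3. It was higher again around 30 RPKM, where the fullest bins held 1045, 1088 and 1059 peaks. All 3 libraries thus showed the same shape. In the pooled inputs the density had a single maximum, with a median of 0.858 RPKM and 90% of peaks between 0.503 and 1.24 RPKM.

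**Figure D1:**
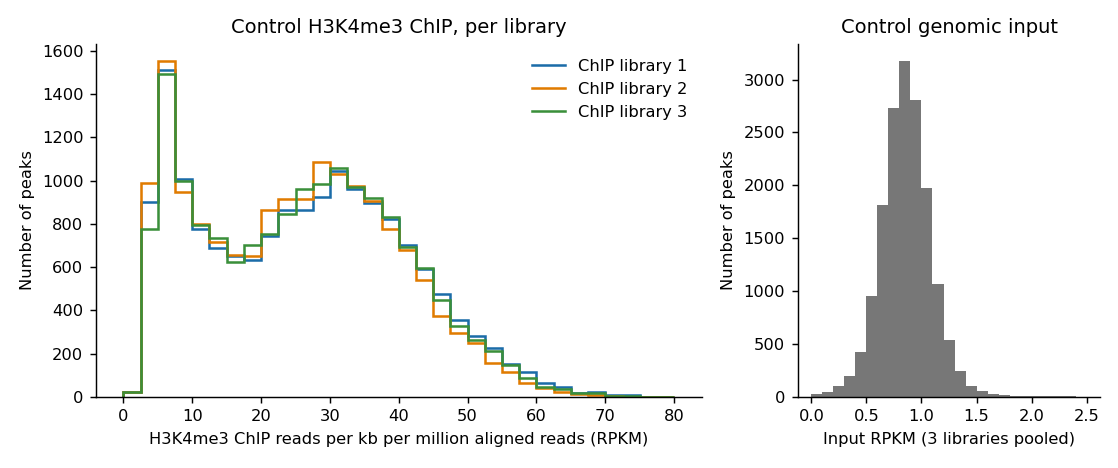
Left, number of peaks (y axis) by H3K4me3 read density in bins of 2.5 RPKM (x axis), with 1 line per control ChIP library. Right, the same for the 3 control inputs pooled in bins of 0.1 RPKM, leaving out 21 peaks above 2.5 RPKM. The ChIP lines have a maximum at 5 to 7.5 RPKM and a broader maximum near 30 RPKM, and the input has only 1.

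Peaks on the low side carried few of the reads. The 3421 peaks under 10 RPKM (20.9% of all) had a median density of 6.20, 6.02 and 6.47 RPKM in ChIP libraries 1, 2 and 3, were 874 bp wide at the median, and held 2.72% of the ChIP reads in peaks on 12.1% of the peak length. The 10150 peaks at 20 RPKM or more (62.0%) had medians of 34.2, 32.9 and 33.9 RPKM and 1834 bp, and held 89.6% of the reads. The inputs were nearly level: input 3 had 1.05 RPKM over the low peaks and 1.04 RPKM over the high ones, input 1 had 0.374 and 0.368 RPKM, and input 2 had 0.387 and 0.373 RPKM. A neighbour within 2 kb was present for 20.7% of the low peaks and for 12.1% of the peaks at 20 RPKM or more, a difference that was not tested. These classes were cut from the density itself, so the differences in density are given as a description.

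The densest peaks are shown because they mark the upper end of the scale. Peak_4625 (chr2:5577967-5580828, 2862 bp) had 3784, 3850 and 3887 ChIP reads and 2, 2 and 62 input reads, which is 77.0 RPKM. Peak_13492 on chromosome 7 (chr7:42269167-42270735, 1569 bp) had 1954, 1986 and 2007 ChIP reads, or 72.5 RPKM. Peak_12071 on chromosome 4 (chr4:83136342-83138123, 1782 bp) had 2188, 2275 and 2286 ChIP reads, or 72.5 RPKM. All 3 libraries held each of these peaks at nearly the same level. Peak_6562 on chromosome 6 and Peak_6109 on chromosome 5 followed with 72.4 and 72.1 RPKM. Of these 5 peaks, Peak_4625, Peak_13492 and Peak_6109 had a neighbour within 300 bp, while Peak_12071 was 251831 bp from the nearest peak.

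Wider peaks carried more H3K4me3 per kb, up to a plateau. The 1585 peaks under 700 bp had median densities of 7.22, 6.99 and 7.52 RPKM in ChIP libraries 1, 2 and 3. The 12080 peaks of 700 to under 2500 bp had 26.4, 25.5 and 26.5 RPKM, the 2156 peaks of 2500 to under 4000 bp had 32.7, 31.3 and 32.2 RPKM, and the 543 peaks of 4000 bp or wider had 32.2, 30.8 and 31.7 RPKM. The narrowest class was below every other class in all 3 libraries. The widest class was slightly below the next in each library. Its SD over libraries of 0.698 RPKM holds a shift that these classes share, with library 2 lowest in each. That SD is therefore no measure of the difference between them. With peaks divided by width into 10 classes of equal number, the mean over libraries of the median density went from 7.26 ± 0.258 RPKM (SD, n = 3) in the narrowest class (275 to 707 bp) to 28.1 ± 0.688 RPKM in the fifth (1345 to 1540 bp) and 32.6 ± 0.779 RPKM in the eighth (2005 to 2341 bp), and stood at 31.9 ± 0.666 RPKM in the widest class (2927 to 16058 bp). Across all 16364 peaks the Spearman correlation of width and ChIP density was 0.50, and that of width and pooled input density 0.03. Widths were set by the peak caller on these reads, so no test is given.

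**Figure D2:**
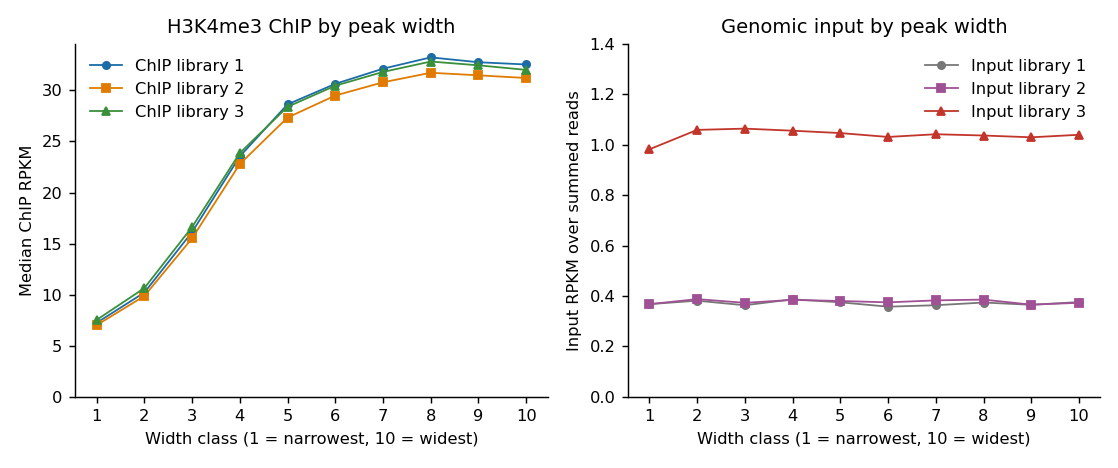
Left, median H3K4me3 density (RPKM, y axis) in 10 classes of equal number ordered by width (x axis, 1 the narrowest), with 1 line per control ChIP library. Right, input density over the summed reads of each class, with 1 line per control input. ChIP density climbs from about 7 to above 30 RPKM and then levels off in all 3 libraries, while each input stays nearly level, input 3 above the others throughout.

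The input changed little with width. Over the summed reads of a class, input 1 had 0.361 to 0.380 RPKM, input 2 had 0.358 to 0.380 RPKM and input 3 had 0.981 to 1.04 RPKM, and the lowest value of each input was in the class under 700 bp. Enrichment therefore followed the ChIP density. Its class medians on the log2 scale were 3.22 ± 0.06 (SD, n = 3) under 700 bp, 4.94 ± 0.03 at 700 to under 2500 bp, 5.23 ± 0.03 at 2500 to under 4000 bp and 5.16 ± 0.03 at 4000 bp or wider. On this scale the class of 2500 to under 4000 bp lay above both of its neighbours in every ChIP library. These SDs hold the same shared shift and are no measure of that difference. Against inputs 1 and 2 alone, it was at 6.46 and the widest class at 6.42. With the reads of a class summed, the values were 5.23 and 5.20. The difference between the widest and the narrowest class was 1.94 ± 0.05 (SD, n = 3), and 1.95 without input 3. Of peaks under 700 bp, 68.0% were under 10 RPKM, against 1.29% of those of 4000 bp or wider. The test against 4-fold left 339 peaks under 700 bp uncalled (21.4%), 503 of 700 to under 2500 bp (4.16%), 7 of 2500 to under 4000 bp and 0 of 4000 bp or wider, where 94.8% of all peaks were called.

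The widest peaks held a share of the reads close to their share of the length. The 543 peaks of 4000 bp or wider were 3.32% of the peaks and held 11.1% ± 0.0633 (SD, n = 3) of the ChIP reads in peaks on 9.95% of the peak length. The 1585 peaks under 700 bp were 9.69% of the peaks and held 1.10% ± 0.0183 of the reads on 2.99% of the length. The widest was Peak_2218 (chr7:120393831-120409888, 16058 bp), with 7823, 8082 and 8079 ChIP reads and 45, 11 and 396 input reads. Its 28.6 RPKM lay close to the median of all peaks. Peak_8371 on chromosome 10 (chr10:109189520-109202389, 12870 bp), with 27.6 RPKM, and Peak_13931 on chromosome 1 (chr1:221197119-221209425, 12307 bp), with 23.8 RPKM, were of the same kind. Wide peaks were thus not always dense ones. Peak_15897 (chr12:13801155-13812433, 11279 bp) was both: it had the most reads of all peaks, 9466, 10128 and 9898, at 50.0 RPKM. Peak_4878 (chr1:131448640-131457209, 8570 bp) was similar, with 7071, 7389 and 7267 reads at 48.5 RPKM.

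Close spacing went with somewhat weaker peaks, and so did isolation. Distance was measured from edge to edge to the nearest peak on the same chromosome or scaffold, which left 30 peaks without a neighbour, and no peaks overlapped. The 2441 peaks with a neighbour within 2 kb had median log2 enrichments of 4.71, 4.67 and 4.71 in ChIP libraries 1, 2 and 3. For the 3070 peaks at 2 to 10 kb the medians were 4.79, 4.74 and 4.79. The 6178 peaks at 10 to 50 kb had 5.05, 4.99 and 5.03, and the 3601 peaks at 50 to 200 kb had 5.12, 5.07 and 5.11. The 1044 peaks at 200 kb or more were back at 4.77, 4.71 and 4.81. The classes between 10 and 200 kb lay above both ends in every library. ChIP library 2 was the lowest in each distance class, so the spread between libraries holds a shared shift. It leaves out the spread over peaks and does not test this shape.

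The difference between isolated and close peaks was 0.07 ± 0.03 (SD, n = 3) on the log2 scale, so these 2 ends differed little from each other. It was 0.16 ± 0.02 without input 3. Between the highest and the lowest quartile of distance, it was 0.33, since the limits then fall within the middle distances. Close peaks were narrower, at 1311 bp at the median, against 1606 bp at 10 to 50 kb and 1484.5 bp at 200 kb or more. Among peaks of 700 to under 2500 bp alone, the median over libraries was 4.67 ± 0.03 under 2 kb. It was 5.10 ± 0.03 at 50 to 200 kb and 4.73 ± 0.05 at 200 kb or more. The shape thus held within this class, but median widths still differed there, at 1288, 1505 and 1442 bp in the same order. The part of width in this shape was not tested. The input, as the mean of 3 libraries, was between 0.586 and 0.610 RPKM in every distance class.

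Neighbouring peaks often differed strongly in density, at every distance. Sorting a pair by density sets its medians apart in advance. The densities of neighbours were nearly uncorrelated, with a Spearman correlation between -0.02 (under 2 kb) and 0.12 (2 to 10 kb) in every gap class. No comparison with randomly drawn pairs was made, so the gaps below are not shown to be particular to neighbours. Of 1286 pairs less than 2 kb apart, the denser peak had a median of 30.7 RPKM and the other 10.2 RPKM, and 26.1% of pairs differed by over 4-fold. Between 2 and 10 kb, the medians were 30.8 and 13.6 RPKM and 17.1% of 1901 pairs differed by over 4-fold. For the 5269 pairs at 10 to 50 kb they were 34.0 and 17.0 RPKM, with 18.5% over 4-fold. The 4996 pairs at 50 to 200 kb had 36.2 and 16.9 RPKM with 20.1% over 4-fold, and the 2858 pairs at 200 kb or more had 35.1 and 13.3 RPKM with 22.7% over 4-fold. The median ratio was 2.11-fold under 2 kb, 1.71-fold at 10 to 50 kb and 2.01-fold at 200 kb or more, so both the closest and the farthest neighbours were more uneven than those in between. The less dense peak of a pair was also the narrower in 72.6% of pairs under 2 kb and in 66.2% at 10 to 50 kb. Width and density were also correlated over all peaks, at 0.50. The median absolute log2 ratio of the inputs was 0.34 under 2 kb and 0.30 at 10 to 50 kb, against 1.08 and 0.77 for ChIP.

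**Figure D3:**
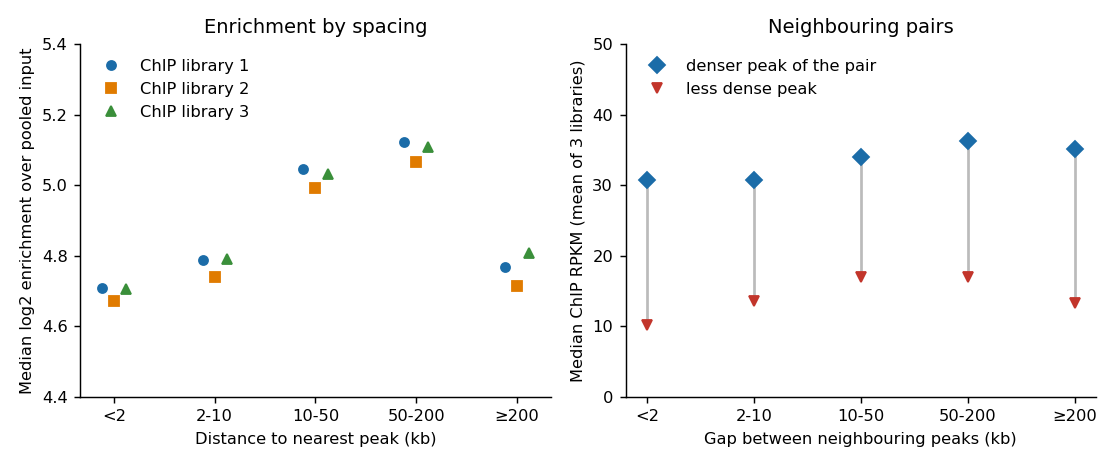
Left, median log2 enrichment over the pooled inputs (y axis, not starting at 0) by distance to the nearest peak (x axis, kb), with 1 point per control ChIP library. Right, median density (RPKM) of the denser and the less dense peak of neighbouring pairs by the gap between them. Enrichment is highest at 50 to 200 kb and lower at both ends, and the less dense peak is lowest, 10.2 RPKM, in pairs under 2 kb apart.

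The closest pairs illustrate both kinds of neighbour. Peak_6180 (chr5:140656270-140656918, 649 bp) had 45, 50 and 58 ChIP reads, and Peak_12683 (chr5:140656940-140658209, 1270 bp), 21 bp further on, had 678, 724 and 708. Their densities were 4.50 and 31.8 RPKM. By contrast, Peak_9930 (chr17:43625909-43626902, 994 bp) with 339, 365 and 313 reads and Peak_4197 (chr17:43626950-43628514, 1565 bp) with 628, 651 and 620 reads, 47 bp apart, had 19.6 and 23.2 RPKM. Peak_1557 and Peak_1558 on chromosome 4 (chr4:161995601-161997094 and chr4:161997155-161999547), 60 bp apart, had 17.9 and 23.0 RPKM. These pairs were nearly even.

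The densest peak of all belonged to such a cluster. When peaks less than 2 kb apart were joined, 1047 groups of 2 peaks, 92 of 3, 11 of 4, 4 of 5 and 1 of 7 were found. Peak_4625 was the middle of a group of 5 on chromosome 2 (chr2:5573922-5585133), whose other members were looked up after its values were seen. In order along the chromosome, Peak_10562 had 70, 70 and 71 ChIP reads (5.95 RPKM), Peak_680 had 1424, 1466 and 1459 (32.1 RPKM), Peak_4625 had 77.0 RPKM, Peak_4626 had 113, 135 and 140 (7.09 RPKM) and Peak_681 had 1964, 2082 and 2063 (38.1 RPKM). A single stretch of 11212 bp thus held peaks from 5.95 RPKM to the highest density of all. The group of 7 lay on chromosome 1 (chr1:131439869-131465921), spanned 26053 bp and ranged from 8.50 to 48.5 RPKM.

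The most isolated peaks on the numbered chromosomes were not alike. Peak_752 (chr2:69414909-69415506, 598 bp), 4773280 bp from its nearest neighbour, had 80, 75 and 89 ChIP reads, or 7.82 RPKM. Peak_9543 (chr15:77736919-77739848, 2930 bp), 4741371 bp from its neighbour, had 1134, 1188 and 1229 reads, or 23.2 RPKM. Peak_4078 (chr16:90613719-90614517, 799 bp), 3981419 bp away, had 434, 473 and 443 reads, or 32.3 RPKM. Dense and weak peaks were both found alone. On the scale of 1 Mb windows, the 6189 peaks in windows with 15 or more peaks had a median of 25.3 ± 0.485 RPKM (SD, n = 3), against 23.8 ± 0.558 RPKM for the 1522 peaks in windows with 1 to 3. Their log2 enrichment over the pooled inputs had the opposite order, 4.84 ± 0.03 against 4.92 ± 0.02, beside a median pooled input density of 0.890 RPKM in the crowded windows and 0.824 RPKM in the sparse ones. Without input 3 the enrichments were 6.01 ± 0.03 and 6.03 ± 0.04, in the same order but closer together. Both groups of windows share the libraries, so these SDs are no measure of the difference between them.

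The numbered chromosomes differed little in H3K4me3 enrichment and much in how densely they carried peaks. Chromosome 1 had the most peaks, 2000, and chromosome 11 the fewest, 392. Per Mb between the first and the last peak, chromosome 10 carried 12.01 and chromosome 12 carried 10.7, while chromosome 2 carried 4.01 and chromosome 15 carried 4.11. Median log2 enrichment ranged only from 4.86 ± 0.03 (SD, n = 3) on chromosome 1 to 5.11 ± 0.05 on chromosome 11, a difference of 0.25 ± 0.03. In ascending order, chromosomes 1, 7, 20, 10, 17, 13, 12, 6, 19, 16, 8, 18, 5, 3, 4, 9, 2, 14, 15 and 11 followed each other. Neighbours in this order mostly differed by no more than the larger of their SDs. The exceptions were the steps from 9 to 2 (4.99 to 5.06) and from 14 to 15 (5.06 to 5.11). ChIP library 2 was the lowest on every numbered chromosome, so these SDs hold a shared shift. They leave out the spread over peaks and do not test the order.

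The ends of that order depended on the input. Without input 3, chromosome 12 was the lowest at 5.85 and chromosome 15 the highest at 6.32, a difference of 0.47. With the reads of a chromosome summed instead of the median peak taken, the ends were chromosomes 7 and 15 and the difference 0.20. Median ChIP density itself ranged from 24.1 ± 0.602 RPKM on chromosome 16 to 29.2 ± 0.640 RPKM on chromosome 11. Over the 20 chromosomes, which share the libraries, peaks per Mb and median log2 enrichment had a Spearman correlation of -0.74 (-0.50 without input 3), while for peaks per Mb it was -0.31 with ChIP density and 0.47 with input density. Peak-rich chromosomes thus had the lower ratios together with the higher input, and the share of either in the other was not tested.

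**Figure D4:**
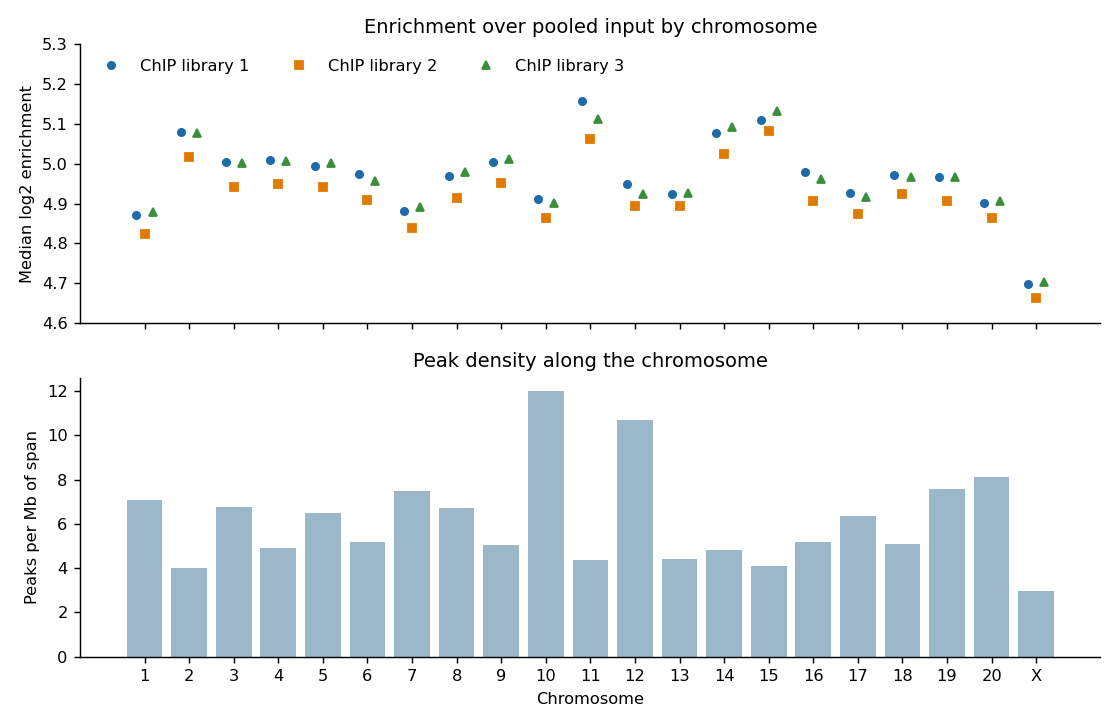
Top, median log2 enrichment over the pooled inputs (y axis, not starting at 0) for chromosomes 1 to 20 and X, with 1 point per control ChIP library. Bottom, peaks per Mb between the first and the last peak of the chromosome. Chromosomes 10 and 12 are the richest in peaks and X the poorest, and X has the lowest enrichment, 4.69.

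The X chromosome lay below every numbered chromosome. Its 475 peaks had median log2 enrichments 0.26 ± 0.01 (SD, n = 3) lower than those of the numbered chromosomes together, at 4.69 ± 0.02 against 4.95 ± 0.03. The difference X minus numbered was -0.27, -0.25 and -0.26 in ChIP libraries 1, 2 and 3, so each library showed it at nearly the same size. Median density was 20.2 RPKM on X and 26.1 RPKM on the numbered chromosomes. As a ratio, X peaks had 0.774, 0.790 and 0.789 of the numbered chromosomes' density in the ChIP libraries, but 1.04, 1.11 and 0.939 in inputs 1, 2 and 3. The lower X level was thus present in ChIP and not in inputs 1 and 2, and inputs 1 and 2 alone gave 5.76 for X, also below the lowest numbered chromosome. X had 2.99 peaks per Mb, and 20.8% of its peaks were under 10 RPKM, within the range of 18.05% to 24.4% on the numbered chromosomes.

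Weakly enriched peaks were few. Against the pooled inputs, 249 peaks were under 4-fold, and choosing them by a low ratio fixes that their ChIP is low or their input high, so the following levels are a description. They were 807 bp wide at the median, with 4.04 ± 0.194 RPKM (SD, n = 3) in ChIP and 1.17 RPKM in the pooled inputs, against 25.8 and 0.858 RPKM over all peaks. Of them, 233 were among the 10% of peaks with the lowest ChIP density and 134 among the 10% with the highest input density, and 96 were under 700 bp. Most of these rested on input 3: against inputs 1 and 2 alone, 27 of the 249 were under 4-fold, and 86 of all peaks were.

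The lowest was Peak_7947 (chr1:47172691-47173318, 628 bp), with 33, 34 and 36 ChIP reads and 1, 1 and 31 input reads, a log2 enrichment of 0.88 ± 0.06. Peak_8425 (chr11:32461126-32462010, 885 bp) had 28, 46 and 34 ChIP reads against 3, 1 and 27 input reads, and Peak_7845 (chr1:266078769-266080643, 1875 bp) had 77, 68 and 64 against 5, 1 and 54. Peak_4145 on chromosome 17 and Peak_13019 on chromosome 6 completed the lowest 5, at 1.05 and 1.09. The peaks with the highest input density had more ChIP reads than these. Peak_7756 on the X chromosome (chrX:119152789-119154409, 1621 bp) had the highest input density, 6.25 RPKM, with 39, 27 and 246 input reads beside 665, 702 and 738 ChIP reads, and its log2 enrichment was 1.99. Peak_8859 and Peak_3543 (chr13:89446871-89447732 and chr13:89440182-89441906) lay within 5 kb of each other and had 5.76 and 5.53 input RPKM.

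How closely the 3 ChIP libraries agreed depended on the scaling. For counts in which every read falls independently (Poisson noise), the chi-square per degree of freedom between a pair of libraries over peaks is 1. Duplicate reads were removed here, which limits the reads a peak can hold, so sampling alone need not give 1. With expected counts taken from reads in peaks, the chi-square per degree of freedom was 0.664 between ChIP libraries 1 and 2. It was 0.917 between 1 and 3, and 0.906 between 2 and 3. With expected counts from aligned reads, the library size used for the densities, it was 1.39, 0.949 and 1.37 for the same pairs. The libraries thus differed by less than Poisson noise in how reads were shared out among peaks. Once the share of reads in peaks counted as well, the pairs with library 2 rose above that level, while pair 1 and 3 stayed under it. Since all 3 pairs were under 1 by reads in peaks and the libraries differed in reads outside peaks (2817628, 3683583 and 3113930), they were kept as 3 libraries. With libraries 1 and 2 counted as 1, 16361 peaks were still called. Among the inputs the value was 0.986 between 1 and 2, 1.87 between 1 and 3, and 1.501 between 2 and 3.

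By reads in peaks, this chi-square changed with how full a peak was. The authors removed duplicate reads, and a single-read library then keeps each start position once per strand. A peak thus has 2 possible read starts per bp of its width. The median peak filled 22.5% of these possible starts and the fullest, Peak_4625, 67.1%. Reads that only overlap an edge of a peak may be counted too, which would raise the limit, most of all in narrow peaks. The shares filled are therefore approximate. In the emptiest 20% of peaks (up to 8.36% filled) the chi-square per degree of freedom was 0.951, 1.201 and 1.212, with expected counts from the reads of that class, for pairs 1 and 2, 1 and 3, and 2 and 3. In the fullest 20% (33.6% or more) it was 0.341, 0.424 and 0.349. All 3 pairs were thus lower in the fullest class than in the emptiest. With expected counts from aligned reads, an alternative chosen after seeing the data, this did not hold: the mean over pairs was 1.25 ± 0.237 (SD over 3 pairs) in the emptiest and 1.26 ± 0.731 in the fullest class, where pair 1 and 2 had 2.08 and pair 1 and 3 had 0.657. The coefficient of variation of a peak over the 3 libraries, after scaling to aligned reads, had a median of 9.07% in the emptiest 20% and 2.57% in the fullest. These classes held a median of 90.7 and 1520 ChIP reads per peak (mean of 3 libraries). More reads alone lower this coefficient, so it does not show closer agreement in fuller peaks. The part of duplicate removal in the plateau of density and in this spread was not tested.

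**Figure D5:**
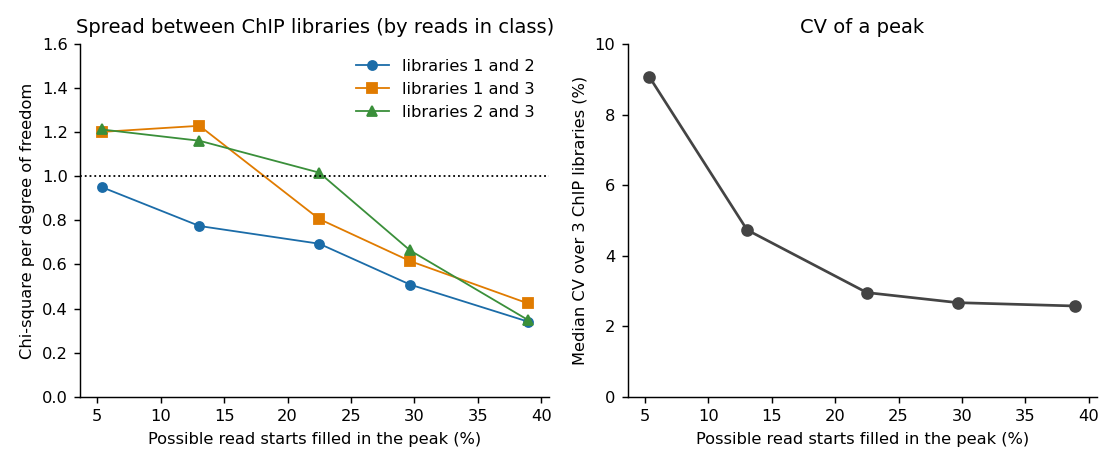
Left, chi-square per degree of freedom between pairs of control ChIP libraries (y axis) in 5 classes of equal number by the percentage of possible read starts filled (x axis, median of the class), with expected counts from the reads of the class and Poisson noise at the dotted line. Right, the median coefficient of variation (CV) of a peak over the 3 libraries. In the fullest class every pair is between 0.341 and 0.424 and the CV is 2.57%, the lowest values shown. With aligned reads as the scaling, chi-square does not show this. The emptiest class has a median of 90.7 reads per peak and the fullest 1520, and more reads alone lower the CV.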

How the data were processed

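Control H3K4me3 ChIP and control genomic input (3 libraries each) were used, grouped by the sample labels. Per the methods, the authors cleaned single reads with trim_galore, mapped them to Rnor_6.0 with BWA, discarded multi-mapped reads (SAMtools) and duplicates (Picard), and obtained peak regions from MACS2 with an Irreproducible Discovery Rate filter and a merge over treatments. HTSeq-count then gave the deposited counts of reads in each peak, which were not normalized. The single-library and combined tables differed in 0 values. The columns of the other 12 libraries were not used.

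Library size was reads in peaks plus reads outside peaks (HTSeq-count's no-feature line, 17.0% to 20.3% of ChIP and 97.1% to 98.9% of input reads), with no further normalization factor, since a factor computed over peaks would set the typical peak to no enrichment. ChIP was tested against input with edgeR 4.0.16 in R 4.3.3 (glmQLFit, glmQLFTest, filterByExpr, Benjamini-Hochberg adjusted p under 0.05). On counts simulated at the input level with a spread equal in all libraries, unlike the real inputs, the test recovered 99 of 100 peaks raised 4-fold and 100 of 100 raised 8-fold among 14474 tested, with 6 false calls. DESeq2 1.42.0 was an alternative. Enrichment per ChIP library used pooled inputs and 0.5 added reads. Other values were computed in Python 3.11.15 with numpy 2.4.6, pandas 2.3.3, scipy 1.17.1 and matplotlib 3.10.9. Peaks were named by extremes of density, width, reads, enrichment, input, spacing and variation. The libraries, classes, lists and tests were chosen with earlier results of these data known. RefSeq tables of another rat build were not used.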

Additional observations from a re-analysis of the deposited data

How the results depend on the processing

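The median enrichment and the width and spacing differences kept their direction in every alternative run, and the chromosome difference, highest minus lowest, cannot change sign. Depth limits the inputs, of which 1 and 2 held a median of 3 and 1 reads per peak. The median log2 enrichment of 4.94 was 7.35 with reads outside peaks as library size, 4.89 with 2 added reads, and 4.78 to 6.08 when a library was left out, highest without input 3. The width difference of 1.94 was 2.07 with 2 added reads, 2.24 with at least 10 input reads, 1.73 between quartiles of width, 1.51 with summed reads, and 1.93 to 1.97 when a library was left out. The spacing difference of 0.07 was 0.33 between quartiles of distance and 0.051 to 0.16 when a library was left out. The chromosome difference of 0.25 was 0.20 with summed reads, 0.32 in peaks of 700 to under 2500 bp, and 0.22 to 0.47 when a library was left out. Chi-square per degree of freedom averaged 0.829, and 1.24 with expected counts from aligned reads. The mean thus crossed the level of Poisson noise, while ChIP libraries 1 and 3 stayed under it at 0.949. The 16361 enriched peaks became 4934 with TMM factors and 4216 with DESeq2 size factors, which centre the peaks on no enrichment by construction and call 5021 and 5311 peaks lower, and 15848 to 16364 in the other alternatives except the 4-fold test.

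ChIP and input libraries share replicate numbers. Deviations of same-numbered libraries over 987 peaks correlated at -0.06, -0.05 and -0.09 for numbers 1, 2 and 3, and those of differently numbered libraries at -0.03 to 0.08. The ChIP libraries differed by little beyond Poisson noise, so such correlations could hardly show a pairing. They cannot decide whether the numbers are pairs. The main results left the libraries unpaired, and values with pairing follow. With the replicate block 16338 peaks were enriched, and with the input of the same number the median log2 enrichment was 5.49, the width difference 2.14, the spacing difference 0.14 and the chromosome difference 0.30.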

Other observations

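The peaks that varied most between the ChIP libraries were of a few kinds, and were singled out in part after their values were seen. In 8 of the 16364 peaks the highest and the lowest ChIP library differed by 4-fold or more in reads per aligned read, and 4 of these 8 lay on unplaced scaffolds, which hold 37 peaks in all. The 3 largest coefficients of variation were on scaffolds. Peak_2704 (1400 bp) had 357, 1449 and 69 ChIP reads in libraries 1, 2 and 3, Peak_2703 (453 bp) had 27, 224 and 23, and Peak_2701 (443 bp) had 26, 190 and 4. Peak_7642 (670 bp) had 228, 818 and 55. All 4 were highest in ChIP library 2 and had 0 reads in input 3, although that input was the deepest.

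The other 4 peaks were on chromosomes and were nearly empty in ChIP library 3 alone. Peak_7999 (chr10:40742447-40743564) had 275, 247 and 1 ChIP reads, Peak_8639 (chr12:25020773-25021867) had 464, 408 and 7, Peak_8957 (chr14:6673772-6674650) had 153, 144 and 4, and Peak_5923 (chr4:170856817-170857208) had 97, 100 and 3. Input 3, with the same number as that ChIP library, had 19, 28, 8 and 7 reads in them. The cause of either pattern was not tested.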
